A study of Mus musculus with 11 samples.

Results

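The Hox genes are the homeobox transcription factors of 4 chromosomal clusters, HoxA, HoxB, HoxC and HoxD, and 37 of them were measured among 19938 genes. They were taken as every gene with a probe set of its own whose symbol is Hox, a cluster letter and a number from 1 to 13. HoxA had 10 such genes, and HoxB, HoxC and HoxD had 9 each. Hoxb8 shared a probe set with Hoxb7 and is given separately.

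The arrays measured mouse embryonic fibroblasts (MEFs), 1 array for each of 11 transgenes. The cells came from male embryos of 13.5 days post coitum, F1 hybrids of a ROSA-rtTA homozygous mother on a C57Bl6 backcross and a Nanog-GFP homozygous father from a C57Bl6/129SV intercross. Both alleles were present in all 11 populations: rtTA is the transactivator that doxycycline switches on, and Nanog-GFP is a bacterial artificial chromosome reporter of pluripotency. All populations received a piggyBac transposon (PB-TAC) with the pCyL43 transposase plasmid by FugeneHD transfection, and doxycycline at 1 ug/mL in embryonic stem cell medium 24 hours later. Of the transposons, 8 carried a polycistronic reprogramming cassette (STEMCCA, MKOS, OSKM, OKMS, OK+9MS, WTSI, EB-C5 and OKN-HAMS), 2 held Klf4 with no other factor (Klf4S and Klf4L), and 1 held lacZ. The cells of the 8 cassettes and of Klf4 alone were sorted for the transposon's mCherry reporter on day 6. The lacZ cells, the reference of the study, were taken on day 2 without a sort, so in any comparison with lacZ the day, the sort and the transgene cannot be told apart. The question put to these data is how the Hox code of the starting fibroblasts read under each construct.

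Hox proteins give cells their position along the body axis and along the limbs. Within each cluster the genes lie in the order in which they are used: those of low paralog number, at the 3' end, act in the anterior body, and those of high number, at the 5' end, act in the posterior body and the distal limb. Fibroblasts keep the Hox pattern of the site they came from when grown in culture, which makes the pattern a record of their origin. Paralogs, the genes of the same number in different clusters, overlap in function. They are grouped below as paralog groups 1 to 3 (7 genes), 4 to 8 (14 genes) and 9 to 13 (16 genes).

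The values are deposited log2 expression values, on which a difference of 1 is 2-fold. With each construct measured once, the spread behind every test is that between constructs and not between repeated cultures, and the number of arrays limits the precision. Array medians lay between 7.19 and 7.27. As a check of the labels, the Pou5f1 signal lay between 11.89 and 13.22 on the 8 cassette arrays, while Klf4S read 6.06, Klf4L 5.85 and lacZ 6.09. The Klf4 signal set the constructs apart far less: it lay between 9.64 and 10.20 on the cassette arrays, with Klf4S at 9.93, Klf4L at 9.71 and lacZ at 9.47, so it gives little check of the 2 arrays labelled as Klf4 alone. All 12 fibroblast markers were above background on all 11 arrays, and their mean log2 level lay between 10.81 in lacZ and 12.04 in Klf4S. Background on an array was the 95th percentile of 1194 olfactory and vomeronasal receptor genes, which lay between 6.18 and 6.32.

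The 4 genes whose values set arrays apart most clearly, described below, were Hoxd13, Hoxd12, Hoxd11 and Hoxa13. Hoxd13 and Hoxa13 are the genes of the digits, and Hoxd11 acts in the forearm and lower leg. Their promoters are shown because the 4 genes shared a pattern across the arrays. Each line gives the 250 bases before an annotated start from RefSeq (GRCm38.p6), 5' to 3' along the gene's strand, with CG dinucleotides in capitals. The build of the array's probes was not given in the sources used here.
Hoxd13: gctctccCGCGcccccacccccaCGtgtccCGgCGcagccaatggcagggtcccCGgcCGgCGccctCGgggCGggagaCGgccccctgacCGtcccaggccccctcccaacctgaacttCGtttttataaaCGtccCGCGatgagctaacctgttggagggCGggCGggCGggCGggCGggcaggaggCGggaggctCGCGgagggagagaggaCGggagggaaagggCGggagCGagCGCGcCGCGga
Hoxd12: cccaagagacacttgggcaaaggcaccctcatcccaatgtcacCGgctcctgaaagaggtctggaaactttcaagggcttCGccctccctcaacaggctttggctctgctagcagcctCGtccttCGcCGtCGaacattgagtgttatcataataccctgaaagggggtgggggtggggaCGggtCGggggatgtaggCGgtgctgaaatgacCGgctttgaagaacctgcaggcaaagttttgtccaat
Hoxd11, first start: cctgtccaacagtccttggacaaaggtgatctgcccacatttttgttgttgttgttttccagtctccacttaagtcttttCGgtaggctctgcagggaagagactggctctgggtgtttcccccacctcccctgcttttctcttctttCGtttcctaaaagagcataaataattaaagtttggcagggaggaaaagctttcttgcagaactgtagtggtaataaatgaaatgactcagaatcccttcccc
Hoxd11, second start: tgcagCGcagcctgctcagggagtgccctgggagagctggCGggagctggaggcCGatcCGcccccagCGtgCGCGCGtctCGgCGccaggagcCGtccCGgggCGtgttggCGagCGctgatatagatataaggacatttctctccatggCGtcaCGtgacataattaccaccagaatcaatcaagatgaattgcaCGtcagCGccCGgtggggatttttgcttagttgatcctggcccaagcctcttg
Hoxa13: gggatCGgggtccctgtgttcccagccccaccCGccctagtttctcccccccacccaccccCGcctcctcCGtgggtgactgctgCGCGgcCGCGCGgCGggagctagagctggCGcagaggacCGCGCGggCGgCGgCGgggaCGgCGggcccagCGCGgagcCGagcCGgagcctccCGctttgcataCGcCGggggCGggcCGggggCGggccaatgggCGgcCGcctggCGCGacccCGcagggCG
The Hoxd13 window lies at chr2:74667975-74668224 on the plus strand and holds 31 CG dinucleotides. Hoxd12 has 10, at chr2:74674763-74675012 on the plus strand. Hoxd11 has 2 annotated starts on the plus strand, with 2 CG dinucleotides at chr2:74679308-74679557 and 20 at chr2:74682073-74682322. The Hoxa13 window, at chr6:52260881-52261130 on the minus strand, has 35. So the 4 genes do not share a CG density: their windows run from among the poorest to the richest of the Hox promoters. The RefSeq table held promoters for 21 of the 37 genes, 23 windows in all. The median was 13 CG dinucleotides in these 23, against 6 in all 32851 promoters of the table. The letters TTTAT, which posterior Hox proteins can bind, stood on either strand in 8 of the 23 (34.8%) and in 37.3% of all promoters. The letters TGATNNAT, a form of the joint Pbx and Hox site, were found in 3 (13%), against 7.68%. The TATA box letters TATAAA were found in 3 (13%), against 12.4%. In Hoxd13, TTTAT and TATAAA were both present, and the motifs can overlap because ATAAA is the reverse complement of TTTAT.

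Most Hox genes read above background on these arrays. On all 11 arrays, 33 of the 37 genes were above background, beside 68.5% of all genes. The exceptions were Hoxc11 (above background on 1 array), Hoxc13 (8), Hoxd1 (8) and Hoxd4 (10). Genes of every paralog group thus read above this background, from Hoxb1, of the hindbrain, to Hoxd13. A value above it does not by itself show expression. The muscle gene Myod1 (6.90 to 7.23) and Cdx1 (7.37 to 7.61) were also above it on all 11 arrays. Hoxb1, at 7.31 to 7.56, lay at a like level. With the 99th percentile of the receptor genes as background, the count of Hox genes above it on all 11 arrays was 25. A bulk array cannot tell fewer cells of a type from less RNA per cell, and this holds for every value that follows.

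**Figure D1:**
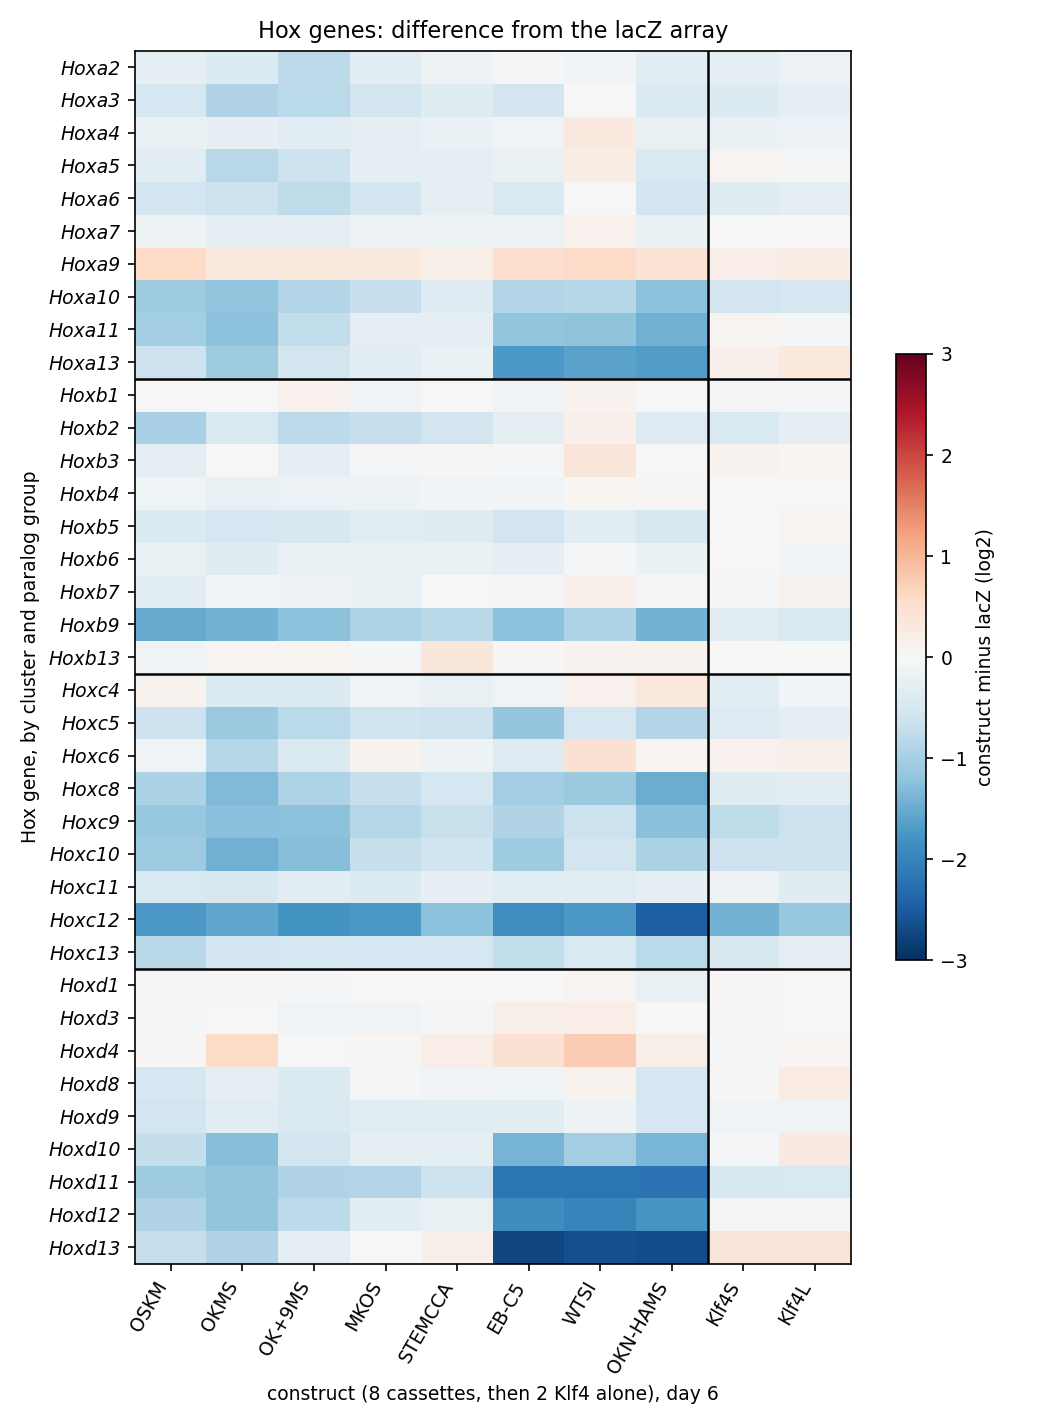
Difference of each of the 37 Hox genes (rows, by cluster and paralog group) from the lacZ array, in log2, for the 8 cassettes and the 2 Klf4 constructs (columns, 1 array each). Blue is lower than lacZ and red is higher. The darkest cells are Hoxd11, Hoxd12, Hoxd13 and Hoxa13 in EB-C5, WTSI and OKN-HAMS and Hoxc12 in most cassettes, and Hoxa9 is above lacZ in all 10 columns.

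Among the cassettes, the 5' end of HoxD and of HoxA split the arrays. Hoxd13, Hoxd12, Hoxd11 and Hoxa13 read lower in EB-C5, WTSI and OKN-HAMS than on any of the other 8 arrays. For each of the 4 genes, these cassettes lay below the others by a gap of at least 0.5 in rank order. That pattern held in 19 of 19938 genes (0.0953%), of which 4 are these Hox genes. No p-value can be given for it, since the arrays were set apart by the values themselves.

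Hoxd13, the last gene of HoxD and needed for digit formation, read 7.11 in EB-C5, 7.19 in WTSI and 7.17 in OKN-HAMS. It read 9.15 in OSKM, 8.94 in OKMS, 9.54 in OK+9MS, 9.83 in MKOS and 9.99 in STEMCCA. Klf4S read 10.21, Klf4L 10.20 and lacZ 9.83. The 3 low cassettes lay close together, and the gap to the next cassette was 1.75. Among the genes whose widest gap has these 3 cassettes alone below it, this was the widest, and among the widest gaps of all genes it ranked 72.

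Hoxd12, its neighbour, read 6.56 in EB-C5, 6.44 in WTSI and 6.67 in OKN-HAMS, close to the background of each array. The values were 7.54 in OSKM, 7.26 in OKMS, 7.67 in OK+9MS, 8.13 in MKOS, 8.24 in STEMCCA, with Klf4S at 8.39, Klf4L at 8.41 and lacZ at 8.45. The same 3 arrays were lowest, here with a gap of 0.59, and the other cassettes ranged more widely than they did for Hoxd11.

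Hoxd11 read 7.23 in EB-C5, 7.21 in WTSI and 7.17 in OKN-HAMS. It read 8.32 in OSKM, 8.22 in OKMS, 8.50 in OK+9MS, 8.52 in MKOS, 8.77 in STEMCCA, with Klf4S at 8.91, Klf4L at 8.95 and lacZ at 9.39. The arrays did not overlap, with a gap of 0.99, and lacZ was the highest of all.

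Hoxa13, the HoxA paralog of Hoxd13, repeated the order in another cluster. It read 6.77 in EB-C5, 6.89 in WTSI and 6.82 in OKN-HAMS. The others were OSKM at 7.87, OKMS at 7.43, OK+9MS at 7.95, MKOS at 8.18, STEMCCA at 8.30, Klf4S at 8.65, Klf4L at 8.81 and lacZ at 8.49. The gap was 0.55, with OKMS nearest to the low arrays.

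**Figure D2:**
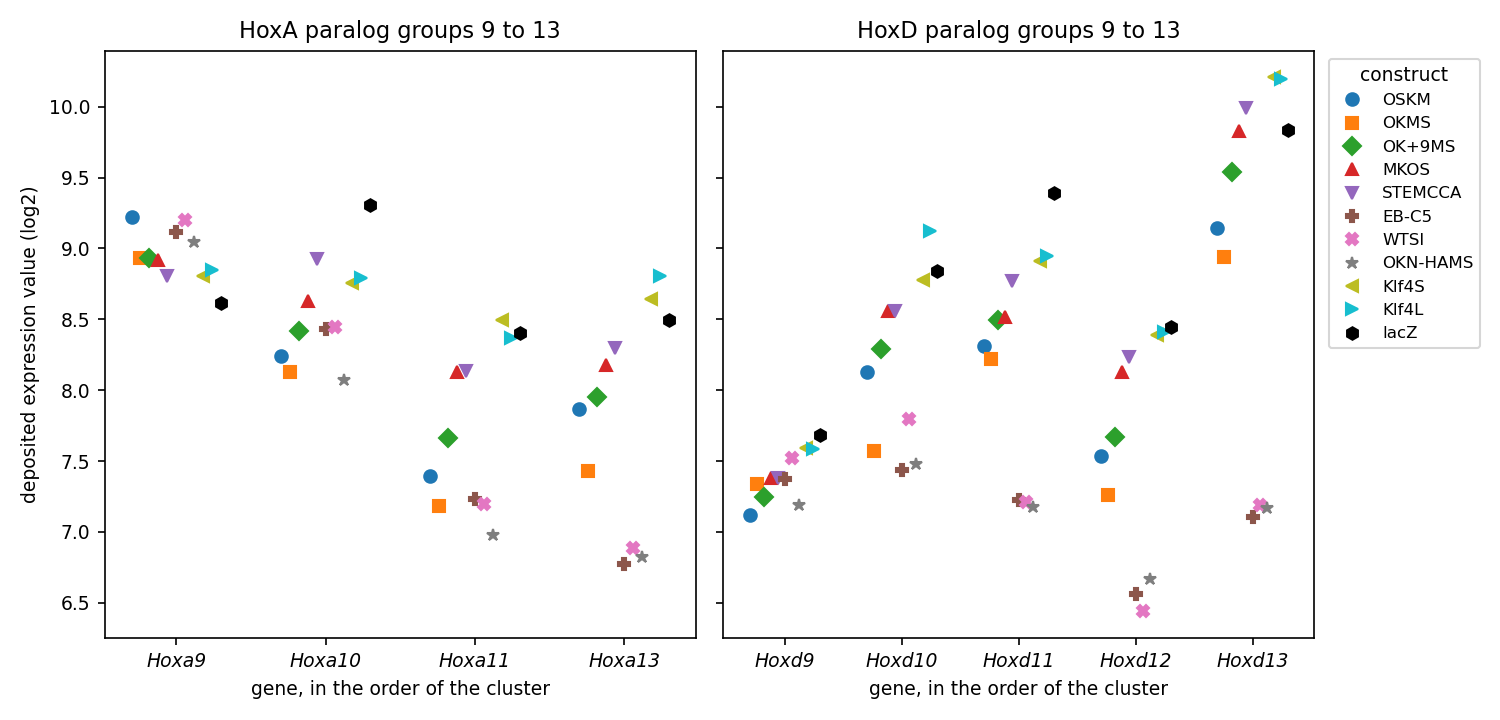
Deposited log2 value of each HoxA and HoxD gene of paralog groups 9 to 13 on each of the 11 arrays (1 point per construct; points are spread sideways only for legibility). EB-C5, WTSI and OKN-HAMS sit below all other arrays for Hoxa13, Hoxd11, Hoxd12 and Hoxd13, between 7.11 and 7.19 for Hoxd13. For Hoxa9, Hoxa10 and Hoxd9 they do not stand apart together, with OKN-HAMS the lowest cassette for Hoxa10 and WTSI the highest for Hoxd9.

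The split faded towards the 3' side. For Hoxd10, EB-C5 (7.44), OKN-HAMS (7.48) and OKMS (7.57) were lowest and WTSI read 7.80, below the remaining 4 cassettes at 8.13 to 8.56. The values of Klf4S (8.78), Klf4L (9.12) and lacZ (8.84) lay above all cassettes. For Hoxa11, OKN-HAMS (6.98), OKMS (7.18), WTSI (7.20) and EB-C5 (7.23) were lowest, followed by OSKM (7.39), OK+9MS (7.66), MKOS (8.13) and STEMCCA (8.14). OKMS thus lay among the low arrays for both genes. Klf4S read 8.50, Klf4L 8.37 and lacZ 8.41 for Hoxa11. For Hoxa10 and Hoxd9 the 3 arrays did not stand together. OKN-HAMS read the lowest cassette value of Hoxa10 (8.075), with EB-C5 at 8.433 and WTSI at 8.445. WTSI read the highest cassette value of Hoxd9 (7.52).

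The 5' genes of the other clusters did not show the split. Hoxc12 had a gap of 0.59, but with OKN-HAMS alone below it. Hoxb13 read between 6.47 and 6.91 over all 8 cassettes, and Hoxc13 between 6.10 and 6.47, both near background. In Hoxc10, WTSI was the highest cassette (8.05) and OKMS the lowest (7.16).

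The same values were also read for each cassette against the median of the other 7. EB-C5, WTSI and OKN-HAMS had been set apart by their low Hoxd11, Hoxd12, Hoxd13 and Hoxa13 values. Their counts of lower Hox genes restate those values, so they are no second check and cannot be read as an excess. For EB-C5, 3 Hox genes were lower by 1 or more (Hoxa13 at -1.09, Hoxd11 at -1.09, Hoxd13 at -2.04), beside 1.8% of all genes. WTSI had 3 (Hoxd11 -1.11, Hoxd12 -1.10, Hoxd13 -1.95), beside 1.49%. OKN-HAMS had 3 (Hoxa13 -1.04, Hoxd11 -1.14, Hoxd13 -1.98), beside 0.567%. STEMCCA had Hoxd13 higher by 1.05, beside 0.973% of genes higher, and none lower, beside 1.52%. The other 4 cassettes had no Hox gene past 2-fold in either direction. The shares of all genes lower and higher by 1 or more were 0.176% and 1.88% in OSKM, 0.988% and 0.697% in OKMS, 0.15% and 1.67% in OK+9MS, and 0.492% and 1.19% in MKOS. No Hox gene was higher in EB-C5 (beside 0.647% of all genes), WTSI (0.441%) or OKN-HAMS (1.59%).

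**Figure D3:**
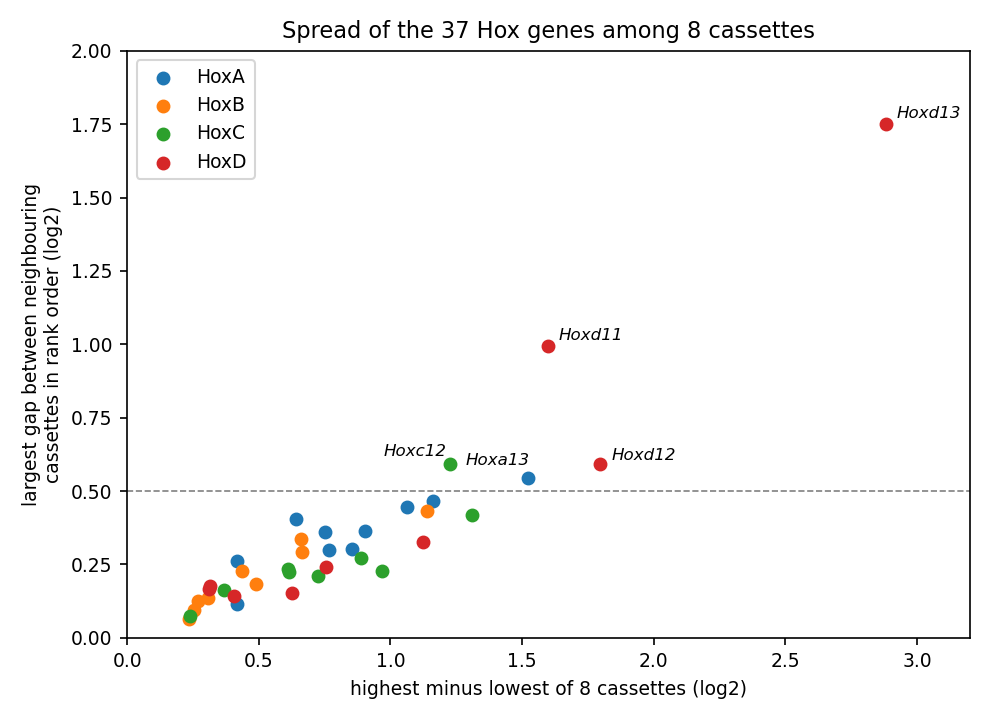
For each of the 37 Hox genes, the highest minus the lowest of the 8 cassettes (horizontal axis, log2) against the largest gap between neighbouring cassettes in rank order (vertical axis, log2). The dashed line marks a gap of 0.5, which 5 genes passed; Hoxd13 stands apart with a range of 2.88 and a gap of 1.75.

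A gap of 0.5 or more was found in 5 Hox genes, beside 8.9% of all genes, and a gap of 1 or more in 1, beside 1.4%. The other named genes with the same 3 arrays below a wide gap included Dkk2, a secreted Wnt antagonist (gap 1.08), Pdgfd, a growth factor (0.93), Mfap5, a microfibril protein (0.71), and Postn, the matrix protein periostin (0.71). Dkk2 read 7.32 in EB-C5, 7.30 in WTSI and 7.35 in OKN-HAMS, and between 8.43 and 9.59 in the other cassettes. These 4 were taken from the widest such gaps after the values were seen, and other genes were passed over. Lsp1 (1.04), Tbc1d7 (0.86) and Nuak1 (0.72) had wider gaps than Postn. The labels name no batch that these 3 arrays share. Of the 12 fibroblast markers, 3 (Thy1, Pdgfrb and Postn) had the same 3 arrays lowest among cassettes, beside 3.3% of all genes and 4 of the Hox genes. The mean fibroblast marker level was 11.07 in EB-C5, 10.89 in WTSI and 10.85 in OKN-HAMS, and lay between 10.86 (OKMS) and 11.76 (STEMCCA) in the other 5. Over the 8 epithelial markers, of which 7 were above background on all arrays, the mean was 7.87 in EB-C5 and 7.76 in WTSI but 10.69 in OKN-HAMS. The other cassettes lay between 8.28 and 10.69 for these markers, and lacZ at 7.54. The part of fibroblast, epithelial or other cells in the Hox values was not tested.

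Against lacZ, the 8 cassettes together had 3 of 37 Hox genes past the test. Hoxb5, Hoxb9 and Hoxc12 fell, and none rose. Over all 19938 genes 2.05% were called, 1.59% lower and 0.456% higher (limma with Benjamini-Hochberg adjustment over all genes, adjusted p under 0.05). At an unadjusted p under 0.05, 14 Hox genes were lower and 1 higher. The share of all genes under that threshold was not counted, so these cannot be read as an excess. All of these differences share the lone lacZ array. By position the differences were uneven. The median difference was -0.04 in paralog groups 1 to 3, -0.19 in groups 4 to 8 and -0.94 in groups 9 to 13, against -0.01 over all genes. Without EB-C5, WTSI and OKN-HAMS the medians were -0.12, -0.26 and -0.65.

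Hoxc12, of the 5' end of HoxC, read 7.20 in OSKM, 7.36 in OKMS, 7.12 in OK+9MS, 7.20 in MKOS, 7.68 in STEMCCA, 7.05 in EB-C5, 7.19 in WTSI and 6.45 in OKN-HAMS. Klf4S read 7.50, Klf4L 7.77 and lacZ 8.91. All day 6 arrays were below lacZ, with Klf4L nearest to it. The difference of the cassettes from lacZ was -1.76 ± 0.32 (SE), 3.38-fold lower, with a limma adjusted p of 0.02856 (Benjamini-Hochberg). The call was lost without OK+9MS (adjusted p 0.0539), Klf4S (0.0566) or Klf4L (0.0566), in a range of 0.00827 to 0.0566 over the 10 fits that leave out 1 array.

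Hoxb9, a gene of the thoracic and more posterior trunk, read 8.48 in OSKM, 8.58 in OKMS, 8.76 in OK+9MS, 9.06 in MKOS, 9.14 in STEMCCA, 8.76 in EB-C5, 9.05 in WTSI and 8.55 in OKN-HAMS. Klf4S read 9.64, Klf4L 9.53 and lacZ 9.98. The 3 groups did not overlap: all cassettes lay below both Klf4 arrays, and both of these below lacZ. Against lacZ the difference of the cassettes was -1.19 ± 0.24 (SE; limma adjusted p = 0.04034, Benjamini-Hochberg). That call was lost in 7 of the 10 fits that leave out 1 array (without OSKM, OKMS, OK+9MS, EB-C5, OKN-HAMS, Klf4S or Klf4L), with adjusted p-values up to 0.0771. It was 0.0843 without all 3 of EB-C5, WTSI and OKN-HAMS, and 0.0536 after quantile normalization.

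Hoxb5, of the middle of HoxB, differed less but varied little among cassettes. The 8 values were 7.52 in OSKM, 7.41 in OKMS, 7.46 in OK+9MS, 7.60 in MKOS, 7.58 in STEMCCA, 7.37 in EB-C5, 7.59 in WTSI and 7.45 in OKN-HAMS. Klf4S read 7.95, Klf4L 8.01 and lacZ 7.93, so that the cassettes stood apart from all 3 other arrays. The difference from lacZ was -0.44 ± 0.09 (SE; limma adjusted p = 0.04978, Benjamini-Hochberg). This call lay at the threshold and was lost in 8 of the 10 fits that leave out 1 array, all but those without MKOS or STEMCCA, with adjusted p-values up to 0.087. It was 0.0817 without EB-C5, WTSI and OKN-HAMS, and 0.0947 with trended, robust moderation of the variances.

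The differences of the 5' HoxD genes did not pass. For Hoxd13 the difference from lacZ was -1.22 ± 1.14 (SE; limma adjusted p = 0.7152), with an SD of 1.25 among the 8 cassettes, and for Hoxd11 it was -1.40 ± 0.61 (adjusted p = 0.31), with an SD of 0.67. For Hoxd12 it was -1.14 ± 0.64 (SE; limma adjusted p = 0.4503). Without EB-C5, WTSI and OKN-HAMS the Hoxd13 difference was -0.34 (adjusted p 0.78) and that of Hoxd11 -0.93 (adjusted p 0.0752), and neither passed. In HoxC, Hoxc8 (-1.01), Hoxc9 (-0.995) and Hoxc10 (-0.96), genes of the thoracic and lumbar trunk, did not pass either, with all 8 cassettes below lacZ in each. Without STEMCCA the count of called Hox genes was 6 in place of 3, through Hoxa10 (adjusted p 0.028), Hoxc8 (0.0466) and Hoxc9 (0.0403). The count over all genes was higher in that fit too.

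Counted over arrays, all 8 cassettes lay below lacZ in 18 of the 37 Hox genes, beside 20.8% of all genes. Of these 18 genes, 13 were among the 16 of paralog groups 9 to 13, and 7 were among the 9 of HoxC, from Hoxc5 to Hoxc13 with the exception of Hoxc6. The lacZ array was the highest of all 11 in 14 Hox genes, beside 14.5% of all genes, again with 7 in HoxC. All 8 cassettes lay above lacZ in 2, Hoxa9 and Hoxd4, beside 13.3% of all genes.

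Hoxa9 went against its neighbours. It read 9.22 in OSKM, 8.94 in OKMS, 8.93 in OK+9MS, 8.92 in MKOS, 8.80 in STEMCCA, 9.12 in EB-C5, 9.20 in WTSI and 9.05 in OKN-HAMS. Klf4S read 8.81, Klf4L 8.85 and lacZ 8.62, the lowest of the 11 arrays. This was the 1 Hox gene with all 10 day 6 arrays above lacZ, beside 8.77% of all genes. The difference of the cassettes from lacZ was 0.41 and did not pass the test (limma adjusted p = 0.211).

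By construct, the number of Hox genes lower than lacZ by 1 or more ran from 1 to 12, and no Hox gene was higher by 1 or more in any construct. OKMS had 12 (beside 4.12% of all genes), EB-C5 11 (4.58%), OKN-HAMS 11 (5.04%), WTSI 8 (3.22%), OSKM 7 (2.71%) and OK+9MS 4 (2.33%). MKOS (1.67%), STEMCCA (1.27%), Klf4S (2.01%) and Klf4L (1.98%) had 1 each, which was Hoxc12 in all 4. The shares of all genes higher by 1 or more were 4.0% in OSKM, 3.39% in OKMS, 3.71% in OK+9MS, 2.71% in MKOS, 1.45% in STEMCCA, 3.01% in EB-C5, 2.14% in WTSI, 4.08% in OKN-HAMS, 1.88% in Klf4S and 1.99% in Klf4L. These comparisons share the lacZ array, so a value of lacZ that stood apart would enter all of them.

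**Figure D4:**
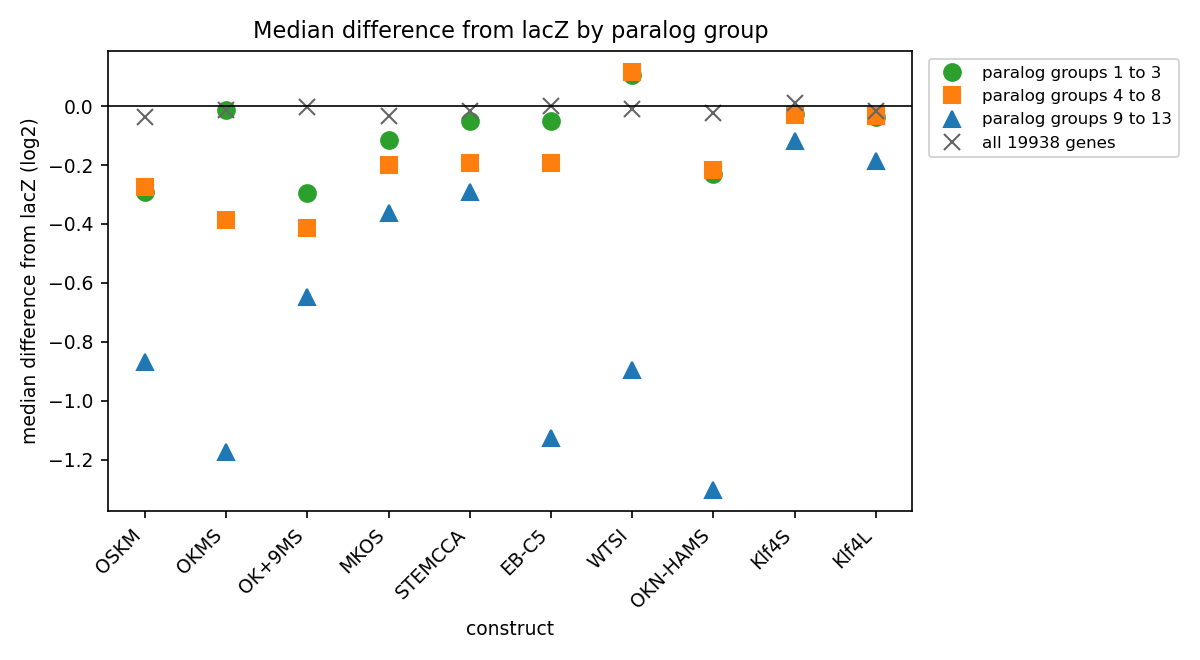
Median difference from the lacZ array (log2) over Hox genes of paralog groups 1 to 3 (7 genes), 4 to 8 (14 genes) and 9 to 13 (16 genes), and over all 19938 genes, for each construct (1 array each). The median of groups 9 to 13 is the lowest of the 3 in every construct, from -1.30 in OKN-HAMS to -0.12 in Klf4S, and WTSI is the 1 construct with both other medians above 0.

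The medians of paralog groups 9 to 13 were -1.30 in OKN-HAMS, -1.18 in OKMS, -1.13 in EB-C5, -0.90 in WTSI, -0.87 in OSKM, -0.65 in OK+9MS, -0.36 in MKOS and -0.29 in STEMCCA. Klf4S had -0.12 and Klf4L -0.19. OKMS thus lay within the range of the 3 arrays that were set apart in Hoxd13, although it was not set apart in Hoxd13 itself.

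The anterior and middle genes had another order. WTSI was the highest cassette in 20 of the 37 Hox genes, beside 13.5% of all genes. Of the 21 genes of groups 1 to 8 it was highest in 16, and of the 16 genes of groups 9 to 13 in 4. Its medians from lacZ were 0.10 in groups 1 to 3 and 0.12 in groups 4 to 8, while the other 7 cassettes had medians below 0 in both. Hoxb2, a hindbrain gene, read 8.87 in WTSI and 7.73 to 8.43 in the other cassettes. Hoxa5, which acts in the neck and lung, read 9.00 in WTSI and 7.94 to 8.56 in the others. Hoxc6 read 9.67 in WTSI and 8.36 to 9.31 in the others. STEMCCA was highest in 12 Hox genes (beside 14.7% of all genes), 11 of them in groups 9 to 13. OKMS was lowest in 8 (beside 11.1%) and highest in none (beside 13.3%). OK+9MS was lowest in 7 (beside 6.82%), all in groups 1 to 8. OKN-HAMS was lowest in 7 (beside 14.8%).

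For Klf4 alone against lacZ no Hox gene was called, beside 0.747% of all genes (limma, Benjamini-Hochberg adjusted p under 0.05). At an unadjusted p under 0.05 there were 3, all lower: Hoxc9, Hoxc12 and Hoxc13. How many of all genes lay under that threshold was not counted, so the 3 cannot be read as an excess. The median difference over the 37 genes was -0.04, and 0 over all genes. HoxC had the lowest median of the clusters (-0.35), and both Klf4 arrays were below lacZ in 8 of its 9 genes. Over all 37, both lay below lacZ in 20 (beside 40.6% of all genes) and above it in 8 (beside 38.7%). Hoxc12 had the largest difference, -1.28, which did not pass (limma adjusted p = 0.181). The 2 Klf4 arrays agreed closely for Hoxd13 (10.21 and 10.20), both above the lacZ value of 9.83.

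The comparison of the cassettes with Klf4 alone is free of the difference in day and sort. In it, 2 Hox genes fell and none rose, beside 14.5% of all genes called, 8.12% lower and 6.35% higher. The difference was -0.48 ± 0.07 (SE; limma adjusted p = 0.005113, Benjamini-Hochberg) for Hoxb5 and -0.79 ± 0.18 (SE; adjusted p = 0.02212) for Hoxb9, from the values above. All 8 cassettes lay below both Klf4 arrays in each. Both calls were lost without Klf4S (adjusted p 0.0728 for Hoxb5 and 0.208 for Hoxb9) and without Klf4L (0.0873 and 0.148). Without EB-C5, WTSI and OKN-HAMS, Hoxb9 was at 0.0662.

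All 8 cassettes lay below both Klf4 arrays in 11 Hox genes, beside 17.8% of all genes, and above both in none, beside 12.3%. The 11 were Hoxd9 to Hoxd13, Hoxa11, Hoxa13, Hoxb5, Hoxb9, Hoxc5 and Hoxc8. At an unadjusted p under 0.05, 12 Hox genes were lower and none was higher. The share of all genes under that threshold was not counted, so the 12 cannot be read as an excess. Large differences that did not pass were Hoxd13 (-1.59 ± 0.85 SE, limma adjusted p = 0.245), Hoxa13 (-1.20 ± 0.43, adjusted p = 0.08834), Hoxd12 (-1.08 ± 0.47, adjusted p = 0.154), Hoxd10 (-0.97 ± 0.32, adjusted p = 0.07282) and Hoxa11 (-0.94 ± 0.30, adjusted p = 0.06414). The count of called Hox genes was 6 without STEMCCA, beside 19.9% of all genes. That fit added Hoxa11, Hoxa13, Hoxc8 and Hoxd10, with adjusted p-values of 0.0236 to 0.0494. The count was 5 without MKOS, which added Hoxa11, Hoxc8 and Hoxd10, beside 18.3% of all genes. It was 4 without WTSI, which added Hoxa7 and Hoxd9, beside 10.8%. With such shares of all genes called, the added Hox genes cannot be read as an excess. The mean fibroblast marker level was also lower in all 8 cassettes (10.85 to 11.76) than in the Klf4 arrays (12.04 and 12.03), and its part in the Hox differences was not tested.

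Among the cassettes the Hox genes differed by cluster in how much they varied. The median SD over the 8 cassettes was 0.24 for the 37 genes and 0.16 for all genes. Among genes above background on all arrays the medians were closer, 0.26 for 33 Hox genes and 0.21 for all 13651 such genes. HoxB was the least variable cluster, with a median SD of 0.13, against 0.28 in HoxD. Over the 10 day 6 arrays the widest ranges were those of Hoxd13 (3.10) and Hoxa13 (2.04). The narrowest, among genes above background on all arrays, were those of Hoxb1 (0.25) and Hoxb4 (0.27). Hoxb1 read between 7.31 and 7.56, and Hoxb4 between 7.07 and 7.34, both in the anterior part of the body plan.

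For 2 pairs, the constructs differ, by name, in 9 residues at the start of Klf4: OK+9MS against OKMS, and Klf4L against Klf4S. No Hox gene differed by 1 or more in either pair, beside 3.18% of all genes in the first and 0.0% in the second. OK+9MS was higher than OKMS in 13 of the 16 genes of groups 9 to 13, led by Hoxd10 (0.72), Hoxd13 (0.60), Hoxa13 (0.52) and Hoxa11 (0.48), and in 9 of the 21 genes of groups 1 to 8, where Hoxd4 had a difference of -0.56. That makes 22 of the 37 Hox genes, beside 51.9% of all genes. Klf4L was higher than Klf4S in 25 of the 37 Hox genes, beside 41.2% of all genes. These were 10 of the 16 genes of groups 9 to 13 and 15 of the 21 of groups 1 to 8. The second pair thus did not repeat the uneven split by position of the first. Between Klf4L and Klf4S the differences ran from -0.21 (Hoxc11) to 0.35 (Hoxd10), and Hoxd13 differed by -0.01. With 1 array for each construct there is no test of these differences.

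Genes that act with or around the Hox clusters were read from lists. Of the TALE cofactors, the Pbx, Meis and Pknox proteins that bind DNA together with Hox proteins, 8 were measured and none was called in any comparison. The shares of all genes called were 2.05% and 0.747% for the cassettes and Klf4 alone against lacZ, and 14.5% for the cassettes against Klf4 alone. The largest difference from lacZ among them was that of Pknox2, -1.20 in the cassettes (limma adjusted p = 0.08489). Of 20 Polycomb genes, which keep Hox genes silent where they are not used, none was called for the cassettes against lacZ. Against Klf4 alone, 3 rose and 3 fell, a share to be read beside the 6.35% of all genes that were called higher and the 8.12% called lower in that comparison. Ezh2, the histone H3 lysine 27 methyltransferase, was higher by 1.39 ± 0.27 (SE) and Suz12, its partner, by 0.73 ± 0.20. Phf1 (-0.73 ± 0.13) and Phc3 (-0.64 ± 0.14) were lower. For Ezh2 and Suz12 the cassettes were nearer to lacZ (0.25 and 0.11) than Klf4 alone was (-1.14 and -0.62). For Phf1 and Phc3 the cassettes lay below lacZ (-0.48 and -0.59) and Klf4 alone above it (0.25 and 0.05). Of 10 Trithorax group and demethylase genes, which act against Polycomb, 2 rose against Klf4 alone, beside 6.35% of all genes. These were Dpy30, by 2.01 ± 0.36, and Wdr5, by 1.18 ± 0.20. None of these 10 was called against lacZ.

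Of the 17 genes of retinoic acid signalling and the Cdx factors, which set the anterior limits of Hox expression in the embryo, Aldh1a1, a retinoic acid synthesis enzyme, rose against lacZ by 3.47 ± 0.53 (SE). It rose by 2.98 ± 0.40 against Klf4 alone, where the receptors Rarb (-0.78 ± 0.20) and Rxra (-0.68 ± 0.17) fell. Of all genes, 0.456% were called higher against lacZ, and 6.35% higher and 8.12% lower against Klf4 alone. Rarb read 6.41 in EB-C5, 6.36 in WTSI and 6.41 in OKN-HAMS, the lowest of the arrays, with OKMS at 6.45 next to them. These values were near background, which was 6.32 in EB-C5, 6.30 in WTSI and 6.24 in OKN-HAMS. The widest Rarb gap among the cassettes, 0.28, lay above OK+9MS (6.69). Of 23 measured genes that flank the clusters, none was called against lacZ, beside 2.05% of all genes. Against Klf4 alone 1 rose and 2 fell, beside 6.35% of all genes called higher and 8.12% lower. Evx2, the homeobox gene next to Hoxd13, was 1 of the 2 that fell (-0.38 ± 0.11). It read 7.44 in EB-C5, 7.66 in WTSI and 7.63 in OKN-HAMS, and 7.66 to 7.97 in the other cassettes. Lnpk and Mtx2, beyond the ends of HoxD, had no call.

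Positional transcription factors outside the clusters, which mark limbs and other regions of the mesenchyme, had 30 measured genes. In the cassettes 2 of them fell against lacZ and none rose, beside 1.59% of all genes called lower: the difference was -1.13 ± 0.16 (SE; limma adjusted p = 0.008802) for Lhx2, of the distal limb bud, and -0.83 ± 0.17 (adjusted p = 0.03837) for Six2. Their median difference was -0.65, against -0.01 over all genes. Against Klf4 alone 5 fell and none rose, beside 8.12% of all genes called lower and 6.35% higher. The largest of these differences was that of Tbx5, the forelimb gene (-1.29 ± 0.33). Tbx5 read 7.58 in EB-C5, 8.03 in WTSI and 7.64 in OKN-HAMS, 7.90 in OKMS and 8.38 to 8.93 in the other 4, and higher on the Klf4S (9.44), Klf4L (9.51) and lacZ (9.83) arrays. EB-C5, WTSI and OKN-HAMS were the 3 lowest cassettes in 3 of the 30 (En1, Lhx2 and Meox1). The hindlimb genes Tbx4 (8.55 to 9.57 in the cassettes, 10.17 in lacZ) and Pitx1 (8.28 to 9.01, and 9.63) were also measured well above background on all arrays, so genes of forelimb and hindlimb both gave a signal.

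Of the microRNA genes within the clusters, Mir10a, Mir10b, Mir196a-1, Mir196a-2 and Mir196b were above background on 0 arrays. Mir615 and Hoxd3os1 were above it on all 11, and Hottip, the RNA at the 5' end of HoxA, on 4. The probe set that carries both Hoxb8 and Hoxb7 read between 7.13 (EB-C5) and 7.91 (STEMCCA) in the cassettes. Klf4S read 7.61, Klf4L 7.79 and lacZ 7.90, and its signal cannot be divided between the 2 genes.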

How the data were processed

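RNA from 11 populations of mouse embryonic fibroblasts was hybridised to Affymetrix mouse gene arrays, 1 array for each construct. The authors deposited log2 values, made with RMA (which corrects background, normalizes between arrays and summarizes probe sets) per the submitters' processing notes, with a version not given in the sources used here. RMA can understate large differences. Depth does not apply to arrays, and the number of arrays limits the precision.

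The table held 28856 probe sets, of which 21789 had 1 gene symbol, 1621 had several and 5446 had none. Only those with 1 symbol were used. For 999 genes with several probe sets, none of them a Hox gene, the set with the highest mean was kept, which left 19938 genes. All 37 Hox symbols matched a current gene. Values were analysed as deposited, with no filter on dim genes.

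Group differences (8 cassettes, 2 Klf4 constructs, lacZ) were fitted over all 11 arrays with limma 3.58.1 in R 4.3.3 (lmFit, eBayes, 8 residual degrees of freedom), with Benjamini-Hochberg adjustment over all genes and calls at an adjusted p under 0.05. The lone lacZ array added no spread, and that of the cassettes and Klf4 arrays stood in for it. The fit was tested on simulated data. Single arrays were compared by differences, with no test. The alternatives left out each array in turn, kept only bright genes or only the compared arrays, rescaled the arrays, averaged probe sets, and changed the moderation, the threshold and the background. Leaving out EB-C5, WTSI and OKN-HAMS together was added after seeing the data. Values were given for Hox genes called in any fit, for those at 2-fold in a described comparison, and for the 2 widest and 2 narrowest ranges on day 6. Up to 4 called genes were named of each list, or the 2 largest differences where none was called. Other Hox genes were described after their values were seen. The Hox genes and the lists were chosen with earlier results of these data known. The labels do not say which form of Klf4 the cassettes other than OKMS and OK+9MS carry, and cassettes were not grouped by it. Markers of endothelial, blood, neural, skeletal muscle and embryonic stem cells were also read on every array.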

Additional observations from a re-analysis of the deposited data

Results flagged for a closer look

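Each of the 37 Hox genes was checked for a cassette far from the other 7 by Dixon's ratio (the gap to the nearest value over the whole range, with a critical value of 0.526 for 8 samples), and 3 had one. Hoxa4 in WTSI was the highest of the 8 cassettes at 8.35, with the next at 7.94 and a ratio of 0.631. Hoxa7 in WTSI was the highest at 9.49, with the next at 9.22 and a ratio of 0.63. Hoxd1 in OKN-HAMS was the lowest at 6.08, with the next at 6.26 and a ratio of 0.559, in a gene near background. Chance alone gives about 1 such case in 20 groups.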

How the results depend on the processing

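For the cassettes against lacZ, 3 Hox genes were called. The count was 0 at an adjusted p under 0.01, 0 when only the compared arrays were fitted, 1 (Hoxb9) among genes above the median level, and 1 (Hoxc12) without EB-C5, WTSI and OKN-HAMS, an alternative chosen after seeing the data. Leaving out each array in turn gave 0 to 6. For the cassettes against Klf4 alone, 2 Hox genes were called. The count was 1 at an adjusted p under 0.01, 5 when only brighter genes were tested (Hoxa11, Hoxa13, Hoxb9, Hoxc8 and Hoxd10, beside 27.9% of those genes), and 1 (Hoxb5) without EB-C5, WTSI and OKN-HAMS. It was 0 to 6 when each array was left out in turn, with 4 without WTSI. Against lacZ, the fits without Klf4S, without Klf4L and without both rest on the same spread, that of the cassettes alone. No Hox gene was called for Klf4 alone against lacZ under any of these alternatives. No difference of a named gene reversed as a called value. Subtracting array medians, quantile normalization, averaging of probe sets and the trended robust moderation kept the counts within 1.5 times (2 or 3 against lacZ, and 2 against Klf4 alone). Over all genes, the count of 409 against lacZ was 98 at an adjusted p under 0.01, 272 without OSKM, 241 without OK+9MS, 734 without STEMCCA, 184 with the compared arrays alone and 186 among the brighter genes. The count of 2885 against Klf4 alone was 471 at an adjusted p under 0.01, 104 without Klf4S, 92 without Klf4L and 1110 without EB-C5, WTSI and OKN-HAMS. Against Klf4 alone, the count over all genes was also 3968 without STEMCCA, 3639 without MKOS and 2149 without WTSI. The cause of these shifts was not tested, other than that some of these fits hold fewer arrays or genes. No paired analysis was possible because the labels give no replicate numbers. What limits these data is 1 array per construct: Hoxc11, Hoxc13, Hoxd1 and Hoxd4 were not above background on every array, so their fitted differences rest in part on values near or below background.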

Other observations

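Some Hox genes gave the same deposited value on several arrays, to 3 decimals. Hoxb1 read 7.42 on 4 arrays (OSKM, STEMCCA, OKN-HAMS and lacZ), Hoxb6 read 7.08 on 3 (OK+9MS, STEMCCA and OKN-HAMS), and Hoxc13 read 6.39 on 3 (OK+9MS, MKOS and STEMCCA). These genes were among those with a small spread over the cassettes (SD 0.09, 0.08 and 0.14).

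The markers of other cell types had the following mean log2 levels over the 11 arrays. Endothelial markers lay between 6.53 (lacZ) and 6.95 (OKMS), with 1 of 5 above background on all arrays. Blood markers lay between 6.52 (lacZ) and 7.12 (OK+9MS), with 1 of 3. Neural markers lay between 8.12 (STEMCCA) and 9.21 (OKN-HAMS), with 6 of 6. Skeletal muscle markers lay between 6.57 (OKN-HAMS) and 7.14 (lacZ), with 3 of 4. Embryonic stem cell markers lay between 5.98 (Klf4L) and 7.27 (OKMS), with 2 of 8.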
